A study of Mus musculus with 6 samples.

Results

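The transcripts of 9 gut hormones and peptides and of the granule protein gene Chga, 10 of the 38561 genes in the deposited tables, were followed in small intestinal mucosa. They were chosen by symbol, with earlier results of these data known. Cck, Gip, Sct and Ghrl were taken as hormones made mainly in the proximal small intestine, Gcg, Pyy and Nts as hormones made more distally, and Sst, Tac1 and Chga as neither. All 10 passed the filter on low counts that left 16425 genes for testing.

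Enteroendocrine cells are scattered single cells of the gut epithelium that sense luminal nutrients and release peptides or serotonin at their base. Each peptide is made as a longer precursor, cut by prohormone convertases and stored in dense granules with chromogranins, of which Chga is the classical pan-endocrine marker. The cells descend from crypt progenitors that pass through a Neurog3-expressing stage, and the hormone each one makes shifts along the length of the intestine and from crypt to villus.

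RNA came from C57BL/6J mice of both sexes aged 8 to 12 weeks, with 3 pools per genotype and, per the labels, 3 mice in each pool. Groups were Rbm47_IKO, in which Rbm47, an RNA-binding protein gene, was deleted by a constitutive Vil1-cre transgene active in the epithelium of small and large intestine, and wt. The study names the controls as Rbm47 fl/fl, the tissue as jejunal mucosa and somewhat wider ranges of age and of mice per pool. Oligo(dT)-selected RNA was sequenced to 31560320 to 38951830 counts per pool. Rbm47 had 603, 625 and 620 CPM (reads scaled to a common library size, by the TMM method of edgeR) in the Rbm47_IKO pools and 460, 450 and 472 in wt. Its log2 fold change was 0.42 (SE 0.10, edgeR adjusted p = 0.0751), so that whole-gene counts of the targeted gene went against the label. The deleted part of the gene was not examined apart. In other assays the study reports negligible Rbm47 mRNA and protein in Rbm47-IKO intestine and fewer enteroendocrine cells. By qPCR it reports lower Cck, Ghrl and Gip and higher Hoxb13. The pools labelled Rbm47_IKO are named by their label below. Epithelial markers were abundant in every pool, with a sum over 9 genes of 27278 to 30344 CPM. Of these 9, 6 had a fitted level above wt and 3 below. DESeq2 called 1 of them, Fabp2, higher in the labelled pools. Sis went the other way, below wt in every labelled pool (log2 fold change -0.39, SE 0.16, edgeR adjusted p = 0.271). Of 6 colon markers, Car1 had 0 counts in all 6 pools, and the 4 that could be tested had a fitted level above wt (median log2 fold change 0.94), with 0 called by edgeR and 1, Hoxb13, called higher by DESeq2. Hoxb13, a homeobox gene of the hindgut, had 90, 134 and 169 counts in the labelled pools and 0, 21 and 11 in wt (log2 fold change 3.69, SE 0.85, edgeR adjusted p = 0.0708).

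In the 3 libraries labelled Rbm47-IKO (with no loss of whole-gene Rbm47 counts), 9 of the 10 transcripts had a fitted level below wt. Tac1 alone was above it, whereas 50.7% of all genes tested were below. Ghrl, which encodes the orexigenic peptide ghrelin, was the 1 member that passed the threshold (edgeR quasi-likelihood test, Benjamini-Hochberg adjusted p of 0.05 or less), against 1.25% of all genes called lower, 1.45% called higher and 2.7% called in either direction. For 6 of the 10, Ghrl, Cck, Gip, Gcg, Nts and Sst, every labelled pool lay below every wt pool, against 11.6% of all genes tested. These same 6 had an unadjusted p under 0.05, against 8.21% of all genes in that direction, and 0 members were higher at that level, against 8.57% of all genes. The median log2 fold change of the 10 was -0.57, and that of all genes tested was -0.01. In bulk mucosa, fewer endocrine cells and less hormone RNA per cell cannot be told apart.

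**Figure D1:**
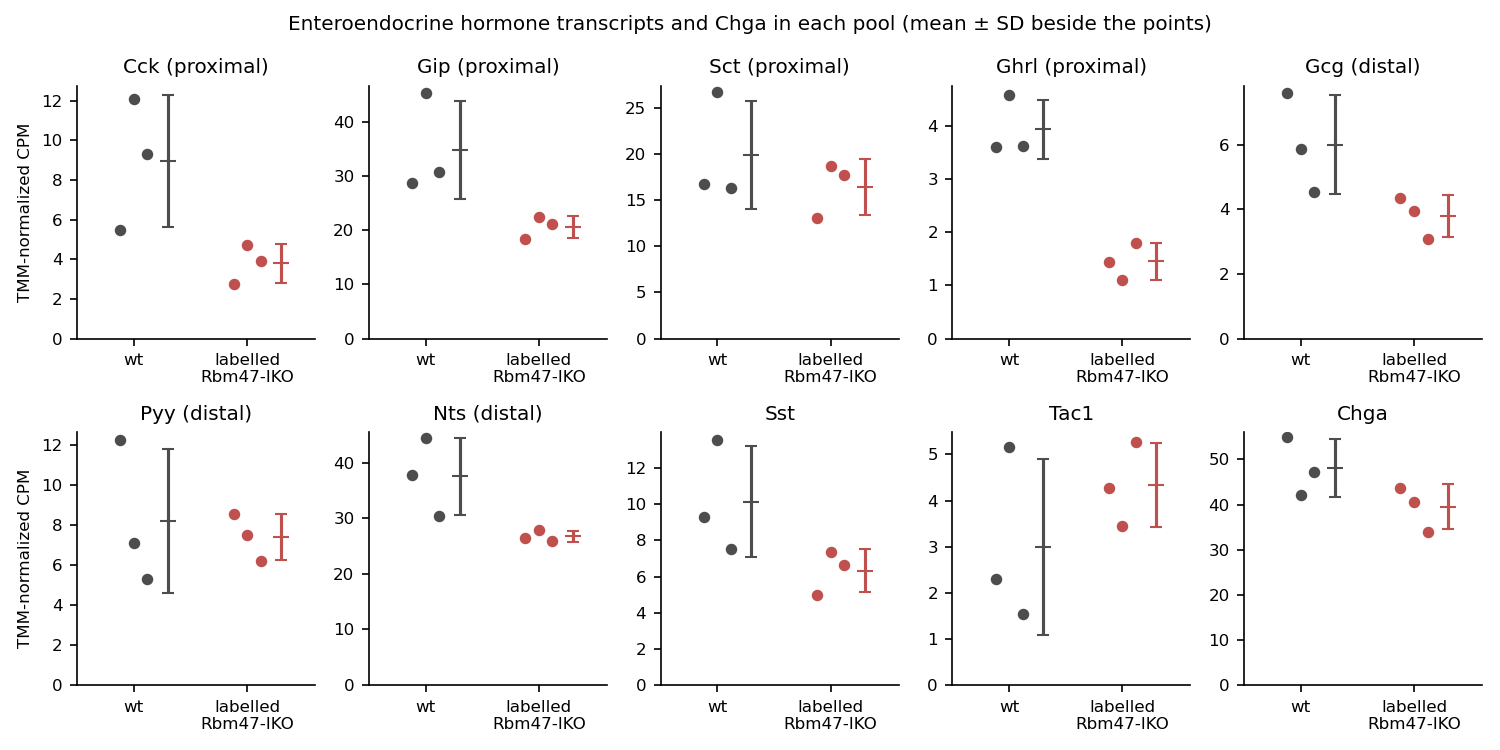
TMM-normalized CPM of each of the 10 genes on linear axes from 0, with 1 point per pool (replicates 1, 2 and 3 from left to right) and the mean ± SD of 3 pools beside the points. Red points of the labelled Rbm47-IKO pools lie wholly below the grey wt points for Ghrl, Cck, Gip, Gcg, Nts and Sst and overlap them for Sct, Pyy, Tac1 and Chga.

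Ghrelin is released by X/A-like cells, chiefly of the stomach but also of the duodenum and jejunum. Ghrl (ENSMUSG00000064177, chr6:113716119-113719880, minus strand) had 1.44, 1.11 and 1.81 CPM in the labelled pools and 3.62, 4.58 and 3.62 in wt. The labelled pools were all low, the highest of them well under the lowest wt pool. The log2 fold change was -1.44 (SE 0.27, edgeR adjusted p = 0.0393), a fitted level 0.369 times that of wt. The counts behind it were 50, 42 and 59 reads against 123, 174 and 132. The call depended on all 6 pools. Leaving out any 1 of them kept the log2 fold change between -1.62 and -1.28, while the edgeR adjusted p rose to between 0.0652 and 0.212. In the same fits the edgeR calls over all genes fell from 443 to between 0 and 431. Stomach mucosa is the richest source of Ghrl, and the summed level of 6 stomach markers was 0.337 to 0.491 CPM in the labelled pools and 0.274 to 0.448 in wt, with Tff1 at 0 counts in every pool. Among them Gkn1 had 6, 6 and 6 counts in the labelled pools and 0 in each wt pool, and Atp4a had 10, 3 and 3 counts against 9, 15 and 8. Ghrl shares 3 nucleotides of exon with the antisense gene Gm26982 in the tables, and use of strand in the counting is not given in the sources used here.

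Cholecystokinin, from I cells, drives gallbladder contraction and pancreatic enzyme release. Cck (ENSMUSG00000032532, chr9:121489825-121495689, minus strand) had 2.77, 4.70 and 3.89 CPM in the labelled pools and 5.47, 12.1 and 9.30 in wt. No labelled pool reached the lowest wt pool, but the wt pools themselves spread widely. This gave a log2 fold change of -1.24 (SE 0.33, edgeR adjusted p = 0.101), which did not pass. Gip encodes the K cell incretin that raises insulin release after a meal. Gip (ENSMUSG00000014351, chr11:96024545-96030831, plus strand) had 18.3, 22.3 and 21.2 CPM in the labelled pools and 28.6, 45.2 and 30.7 in wt. The groups did not overlap, and wt pool 2 stood above all other pools. The fitted log2 fold change was -0.76 (SE 0.19, edgeR adjusted p = 0.087).

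Cck and Gip passed by DESeq2 (adjusted p = 0.00607 and 0.00609) and in an edgeR fit with smooth muscle RNA as a covariate (adjusted p = 0.0164 and 0.0114). By DESeq2, 3.89% of the 14818 genes with an adjusted p were lower and 4.5% higher. Cck also passed without wt pool 1, the lowest wt pool (log2 fold change -1.49, edgeR adjusted p = 0.049). Secretin, from S cells, stimulates bicarbonate secretion. Sct (ENSMUSG00000038580, chr7:141278331-141279133, minus strand) had 13.0, 18.7 and 17.7 CPM in the labelled pools and 16.7, 26.7 and 16.3 in wt. Here the groups overlapped, with wt pool 2 alone above the rest. Its log2 fold change was -0.27 (SE 0.23, edgeR adjusted p = 0.641), and without wt pool 2 it was -0.00 (edgeR adjusted p = 0.997), so that the fitted decrease of Sct rested on that pool. The proximal hormones thus ran from -1.44 to -0.27 on the log2 scale. For 3 of 4, every labelled pool lay below every wt pool, against 11.6% of all genes tested. The same 3 had an unadjusted edgeR p under 0.05, against 8.21% of all genes in that direction.

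Among the members, primer pairs in the study's list were found by symbol for Ghrl, Cck and Gip only. These are also the 3 members with the largest fitted decreases. The primers are shown because they mark the stretch of each transcript that was targeted. They were placed on GENCODE M21 transcripts (GRCm38), and each amplicon lies wholly in coding sequence. The Ghrl pair spans exons 2 to 3 of the 5 exons of Ghrl-201 (62 bases, chr6:113719190-113719346), the Cck pair lies in exon 3 of the 3 exons of Cck-201 (60 bases, chr9:121490098-121490157), and the Gip pair spans exons 2 to 3 of the 6 exons of Gip-201 (59 bases, chr11:96025434-96026654). Both primers of a pair were found in 5 of 7 Ghrl transcripts, 4 of 6 Cck transcripts and 2 of 2 Gip transcripts. Each is written 5′ to 3′ with no part in capitals.
Ghrl forward: gagcccagagcaccagaaag
Ghrl reverse: gcagtttagctggtggcttctt
Cck forward: gaccccagccatagaataagtga
Cck reverse: gcgccggccaaaatc
Gip forward: tgggagaaaaagaagaggttgagt
Gip reverse: aggtcgagggccagcaa

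L cells of the distal gut make both proglucagon, the source of GLP-1 and GLP-2, and peptide YY, which slows transit and curbs appetite. Gcg (ENSMUSG00000000394, chr2:62474530-62483650, minus strand) had 4.36, 3.93 and 3.09 CPM in the labelled pools and 7.59, 5.88 and 4.53 in wt. The groups did not overlap, although the highest labelled pool came close to the lowest wt pool. Its log2 fold change was -0.66 (SE 0.25, edgeR adjusted p = 0.244). Pyy (ENSMUSG00000017311, chr11:102106676-102107832, minus strand) had 8.55, 7.50 and 6.22 CPM in the labelled pools and 12.3, 7.09 and 5.30 in wt. Labelled pools sat inside the wt range, whose top was set by wt pool 1.

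Without wt pool 1 the fitted change of Pyy turned from -0.15 (SE 0.31, edgeR adjusted p = 0.89) to 0.26 (edgeR adjusted p = 0.69), and with the smooth muscle covariate it was 0.01. Neurotensin, from N cells, promotes fat absorption. Nts (ENSMUSG00000019890, chr10:102481760-102490418, minus strand) had 26.4, 27.9 and 25.9 CPM in the labelled pools and 37.7, 44.4 and 30.5 in wt. The labelled pools were close to each other and all below wt. The log2 fold change was -0.49 (SE 0.15, edgeR adjusted p = 0.135). DESeq2 gave Nts an adjusted p of 0.0491. None of the 3 distal hormones passed by edgeR. For 2 of 3, Gcg and Nts, every labelled pool lay below every wt pool, against 11.6% of all genes tested. The same 2 had an unadjusted edgeR p under 0.05, against 8.21% of all genes in that direction.

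Somatostatin, from D cells, inhibits the release of other gut hormones. Sst (ENSMUSG00000004366, chr16:23889581-23890844, minus strand) had 4.997, 7.34 and 6.65 CPM in the labelled pools and 9.32, 13.5 and 7.55 in wt. The groups did not overlap by a narrow margin. This gave a log2 fold change of -0.68 (SE 0.26, edgeR adjusted p = 0.237). Without wt pool 2 it was -0.41 (edgeR adjusted p = 0.323). Chga (ENSMUSG00000021194, chr12:102554969-102565027, plus strand), the granule marker shared by most of these cells, had 43.8, 40.7 and 34.0 CPM in the labelled pools and 54.9, 42.2 and 47.2 in wt. In 2 of 3 labelled pools it was below the lowest wt pool, and the remaining pool lay within the wt range. Its log2 fold change was -0.29 (SE 0.14, edgeR adjusted p = 0.371).

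**Figure D2:**
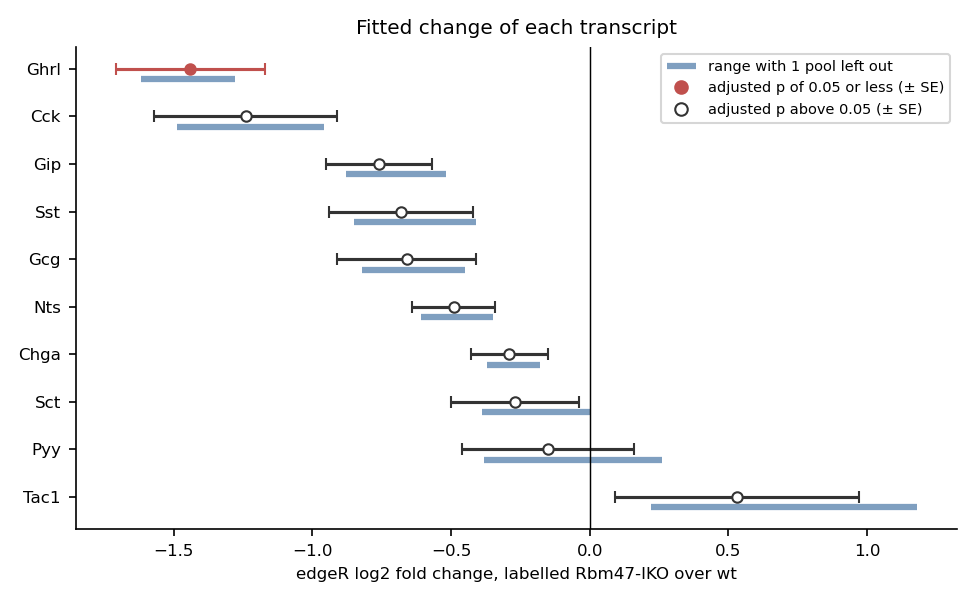
Fitted edgeR log2 fold change of each of the 10 genes, labelled Rbm47-IKO over wt, with bars for the SE, a filled red point for the gene past the adjusted threshold and blue lines for the range when 1 of the 6 pools is left out. Ghrl lies farthest left at -1.44 and Tac1 alone lies right of 0, at 0.53, and the blue line of Pyy crosses 0.

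Tac1, which encodes substance P, is made by enterochromaffin cells and also by enteric neurons. Tac1 (ENSMUSG00000061762, chr6:7555071-7562973, plus strand) had 4.28, 3.46 and 5.27 CPM in the labelled pools and 2.29, 5.16 and 1.54 in wt. The groups overlapped through wt pool 2. The fitted log2 fold change was 0.53 (SE 0.44, edgeR adjusted p = 0.634). The 2 pools with the highest Tac1, labelled pool 3 and wt pool 2, also had the most neuronal and muscle RNA. The sum of 10 enteric neuron markers was 10.1, 12.2 and 44.7 CPM in the labelled pools and 9.91, 41.2 and 15.3 in wt. Not all 10 followed that order. Ret had 2.37, 3.14 and 5.85 CPM in the labelled pools and 6.76, 8.51 and 7.55 in wt (log2 fold change -1.01, SE 0.33, edgeR adjusted p = 0.175) and was the 1 neuron marker that DESeq2 called, lower. Chat was lowest of the labelled pools in pool 3 and highest of wt in pool 3. The sum of 6 smooth muscle markers was 361, 586 and 3302 CPM in the labelled pools and 90.7, 2803 and 313 in wt. With smooth muscle RNA as a covariate the fitted log2 change of Tac1 was 0.40 (edgeR adjusted p = 0.568), and with those 2 pools left out it was 1.01 (edgeR adjusted p = 0.134). Over single pools left out it ran from 0.22 to 1.18 (edgeR adjusted p of 0.0975 to 0.924).

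**Figure D3:**
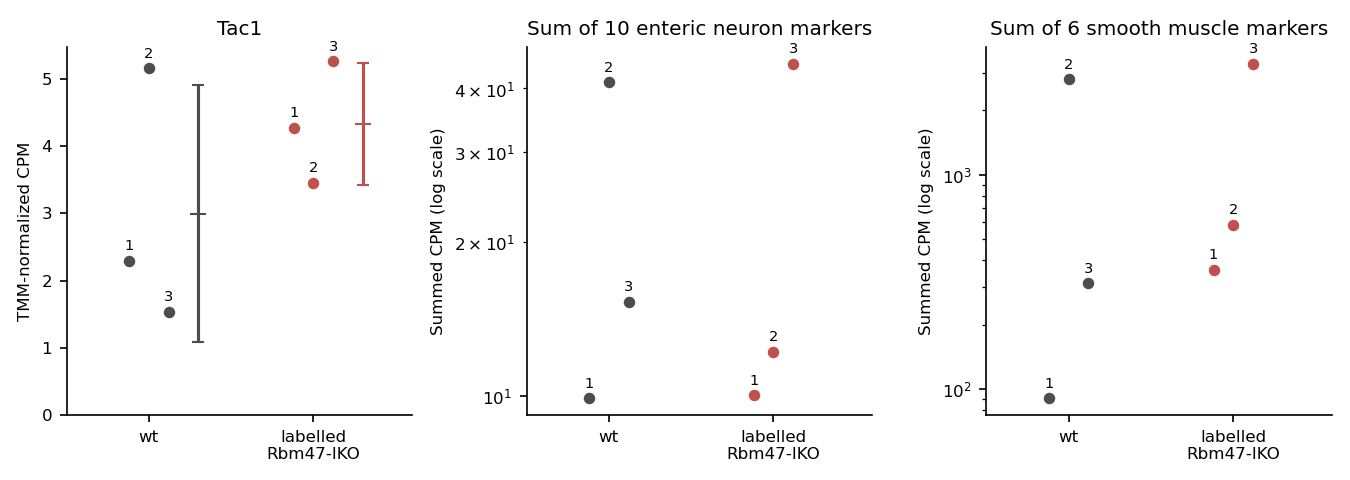
Tac1 in TMM-normalized CPM (linear axis, mean ± SD of 3 pools) beside the summed CPM of 10 enteric neuron markers and of 6 smooth muscle markers (log axes), with the replicate number above each pool's point. Labelled Rbm47-IKO pool 3 and wt pool 2 are the highest of their groups in all 3 panels.

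The same wt pool 2 had the highest wt level of Cck, Gip, Sct, Ghrl, Nts and Sst. With both high-muscle pools left out, the fitted log2 change was -1.51 for Ghrl (edgeR adjusted p = 0.0563), -0.99 for Cck (edgeR adjusted p = 0.168) and -0.55 for Gip (edgeR adjusted p = 0.119). In the same setting it was -0.07 for Sct, -0.33 for Nts and -0.46 for Sst (edgeR adjusted p = 0.876, 0.27 and 0.334). Pancreatic acinar markers summed to 21.9 CPM in labelled pool 3 and to 0.290 to 1.03 in the other 5 pools, while the islet genes Ins1 and Ins2 together had 0.368 CPM in labelled pool 3 and 0 in the others. Pancreatic islets also make Gcg and Sst, and the part of pancreatic RNA in their values was not tested.

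Proximal and distal hormones were then set against each other within each pool. The summed CPM of Cck, Gip, Sct and Ghrl over that of Gcg, Pyy and Nts was 0.904, 1.19 and 1.265 in the labelled pools and 0.946, 1.55 and 1.49 in wt. It was 1.12 ± 0.190 (SD, n = 3 pools) against 1.33 ± 0.331 (SD, n = 3), a difference smaller than the wt spread, with 1 pool of each group below 1. Wt pool 1, the lowest of wt here, had the lowest wt Cck and the highest Gcg and Pyy of all pools. It also had 44.3 CPM of the ileal bile acid transporter Slc10a2, against 3.40 and 7.05 in the other wt pools and 7.84 to 17.2 in the labelled pools. The ileal fatty acid binding protein Fabp6 had 31.7, 39.8 and 18.6 CPM in the labelled pools and 17.2, 3.98 and 2.55 in wt (log2 fold change 1.93, SE 0.67, edgeR adjusted p = 0.201). Apoa4, a lipoprotein gene of proximal enterocytes, had 3337, 3548 and 3198 CPM in the labelled pools and 4295, 8088 and 7903 in wt (log2 fold change -1.01, SE 0.25, edgeR adjusted p = 0.0802). Of the regional lists, 6 of 8 proximal markers (median 0.18) and 4 of 6 distal markers (median 0.35) had a fitted level above wt and 0 of either passed by edgeR. DESeq2 called 1 proximal marker lower, Apoa4, and 2 distal markers higher, Slc51a and Slc51b, the subunits of the basolateral bile acid transporter. Slc51a had 444, 480 and 371 CPM in the labelled pools and 324, 259 and 261 in wt, with no overlap (log2 fold change 0.62, SE 0.15, edgeR adjusted p = 0.074), and Slc51b overlapped between groups (log2 fold change 0.64, SE 0.20, edgeR adjusted p = 0.153). Of the proximal markers, Gata4 (log2 fold change 0.42), Pdx1 (1.79) and Slc40a1 (0.45) lay above wt in every labelled pool, with edgeR adjusted p of 0.17, 0.11 and 0.274, and Apoa4 alone lay below wt in every one. The part of the sampled gut segment, colon included, in the hormone values was not tested.

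Levels were compared between genes per kilobase of the gene length in the tables (RPKM, from TMM library sizes). In wt the order was Gip at 50.7 ± 13.2 (SD, n = 3 pools), Sct at 37.3 ± 11.0, Nts at 31.9 ± 5.92, Chga at 25.6 ± 3.41, Sst at 16.9 ± 5.14, Cck at 13.1 ± 4.84, Pyy at 13.0 ± 5.73, Ghrl at 7.48 ± 1.06, Gcg at 4.01 ± 1.03 and Tac1 at 2.90 ± 1.85. Neighbours in this order overlapped over the wt pools, except Ghrl and Gcg, whose pools were apart. In the labelled pools Sct came first at 30.9 ± 5.66 and Gip next at 29.98 ± 3.04, while Ghrl (2.76 ± 0.663) fell behind Tac1 (4.19 ± 0.876). Sct and Gip overlapped over the labelled pools, as did Ghrl and Tac1. As a share of the summed RPKM of the 10 genes, Ghrl made up 2.07%, 1.39% and 2.43% in the labelled pools and 3.59%, 3.55% and 3.99% in wt. Cck made up 3.06%, 4.52% and 4.02% against 4.17%, 7.19% and 7.89%, with an overlap between groups. Sct held 18.4%, 23.0% and 23.5% against 16.4%, 20.4% and 17.7%.

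**Figure D4:**
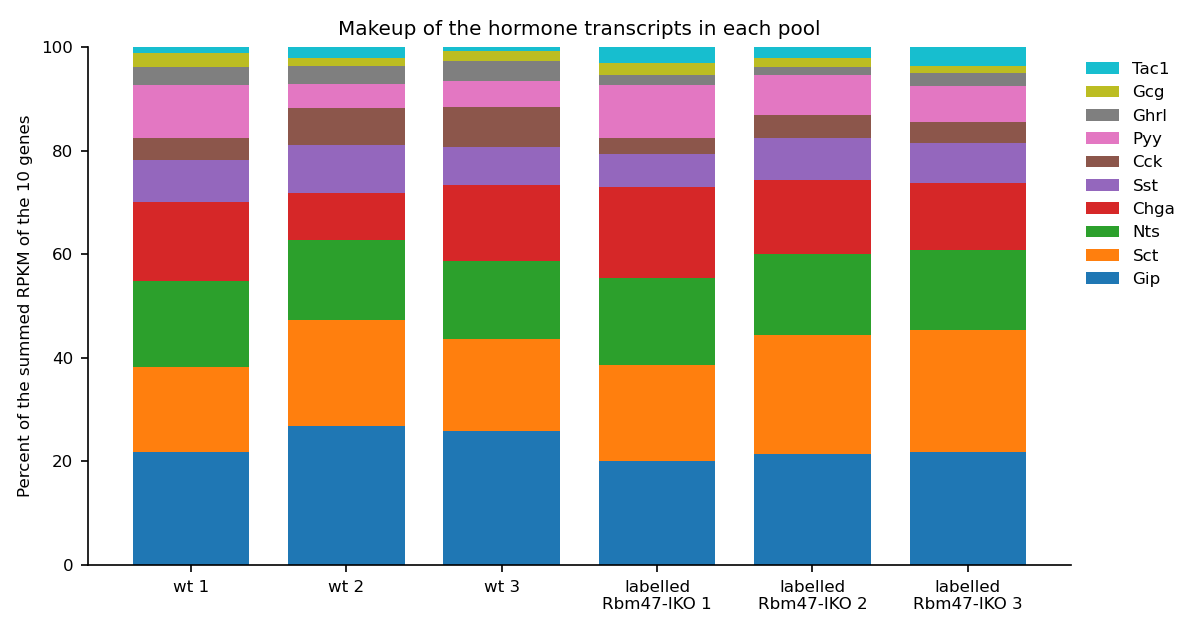
Stacked bars of each gene's percent of the summed RPKM of the 10 genes, 1 bar per pool, from 0 to 100%. Gip, Sct, Nts and Chga fill most of every bar, and the grey Ghrl band is thinner in each labelled Rbm47-IKO pool (at most 2.43%) than in each wt pool (at least 3.55%).

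Scaled to Chga in the same pool, a ratio of RPKM values added after the data were seen, Ghrl was 0.118, 0.0974 and 0.190 in the labelled pools and 0.235, 0.388 and 0.274 in wt. Ghrl was the 1 of 9 hormones whose groups stayed apart on this scale, for which no share over all genes was computed. Cck per Chga was 0.174, 0.318 and 0.314 against 0.274, 0.785 and 0.542, and Gip per Chga was 1.14, 1.505 and 1.71 against 1.43, 2.94 and 1.78, both with overlap. Sct per Chga averaged 1.502 ± 0.408 (SD, n = 3) against 1.51 ± 0.631 (SD, n = 3).

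Promoter windows are shown for 5 members with a fitted level below wt over all 6 pools. Each holds a TATA box core shortly before its start or a full cAMP response element, as defined below. Sequences come from RefSeq (GRCm38.p6), from 250 bases before to 50 bases after each start, and all 10 members matched, with 14 promoters among them. The letters TATAA, the core of a TATA box, lay on the gene's strand 40 to 16 bases before the start in Gip, Sct, Gcg and Pyy, 4 of the 14 member promoters, and in 3.52% of all 32851 promoters. Anywhere in the window and on either strand, TATAA was found in 7 of the 14 (6 of 10 members) and in 24.9% of all promoters. In Ghrl and Chga it lay just past the start, and those windows are not shown. The full cAMP response element TGACGTCA, a palindrome, was found in Sst alone, 1 of the 14, 48 bases before its start, and in 1.79% of all promoters. Its shorter core TGACG, which the full element contains, was found on either strand in 5 of the 14 and in 20.8% of promoters, and the E-box CANNTG, which basic helix-loop-helix factors bind, in 14 of the 14 and in 72.3% of promoters. Capitals mark TATAA or the response element in 30-base windows on the gene's strand: Gip at chr11:96024508-96024537 (plus), Sct at chr7:141279144-141279173, Gcg at chr2:62483660-62483689, Pyy at chr11:102107842-102107871 and Sst at chr16:23890874-23890903 (all minus).
Gip: gtggtgcctggaTATAAggacaccaagaca
Sct: ggtcccggcagcTATAAagcggtggcgcgg
Gcg: gcctggagagcaTATAAaagcacagcaccc
Pyy: ttccaagtgggaTATAAgccccgcagggaa
Sst: gcctccttggcTGACGTCAgagagagagtt

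Serotonin is the other main product of gut endocrine cells. Of 6 genes of its synthesis, storage and breakdown, edgeR called 1 lower and 0 higher, with a median log2 fold change of -0.58, and DESeq2 called 2 lower and 1 higher, where it called 3.89% and 4.5% of all genes. Slc18a1, the vesicular transporter VMAT1 that loads serotonin into granules, had 9.39, 8.03 and 8.79 CPM in the labelled pools and 17.2, 16.1 and 16.4 in wt. The pools were tight within each group and far apart, with a log2 fold change of -0.92 (SE 0.13, edgeR adjusted p = 0.0162). Leaving out labelled pool 1, 2 or 3 or wt pool 3 took its edgeR adjusted p to between 0.0612 and 0.129. Tph1, the rate-limiting enzyme of serotonin synthesis in the gut, had 3.73, 4.86 and 3.68 CPM against 5.29, 7.46 and 7.33 (log2 fold change -0.71, SE 0.22, edgeR adjusted p = 0.152). Slc18a2, the related transporter VMAT2, had 6.12, 4.78 and 5.48 CPM against 10.1, 7.98 and 8.07 (log2 fold change -0.67, SE 0.18, edgeR adjusted p = 0.108). Tph1 and Slc18a2 were named after their values were seen. The 2 most abundant genes of the list are not confined to endocrine cells, and both lay higher in every labelled pool. Maoa, which degrades serotonin, had 1200 to 1408 CPM against 731 to 902 (log2 fold change 0.63, SE 0.13, edgeR adjusted p = 0.0544). Ddc, the decarboxylase, had 132 to 156 CPM against 101 to 126 (log2 fold change 0.28, SE 0.13, edgeR adjusted p = 0.309).

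Among 17 tested genes of 18 for granules and prohormone processing, edgeR called 0 and DESeq2 called 0, with 1 at an unadjusted edgeR p under 0.05 and a median log2 fold change of 0.02. That gene was Chgb, chromogranin B, at 47.6, 39.7 and 37.6 CPM in the labelled pools and 44.9, 68.8 and 75.9 in wt, with overlap through wt pool 1 (log2 fold change -0.60, SE 0.20, edgeR adjusted p = 0.178). Pam, which amidates peptide hormones, had 73.4 to 92.7 CPM against 52.7 to 98.8 (log2 fold change 0.04, SE 0.22, edgeR adjusted p = 0.849). Among 14 tested of 19 enteroendocrine transcription factors, edgeR and DESeq2 called 0, with a median of -0.18. At an unadjusted edgeR p under 0.05, 2 of the 14 were lower and 0 higher. Over all genes, 8.21% were lower and 8.57% higher at that level. Rfx3 had 6.30 to 6.92 CPM against 8.23 to 11.0 (log2 fold change -0.53, SE 0.17, edgeR adjusted p = 0.153), and Foxa1 had 7.72 to 10.2 against 7.80 to 9.97 (log2 fold change 0.04, SE 0.18, edgeR adjusted p = 0.819). Neurog3, the factor of the endocrine progenitor, named after its values were seen, had 4, 5 and 5 counts in the labelled pools and 9, 17 and 9 in wt and was too low to be tested.

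**Figure D5:**
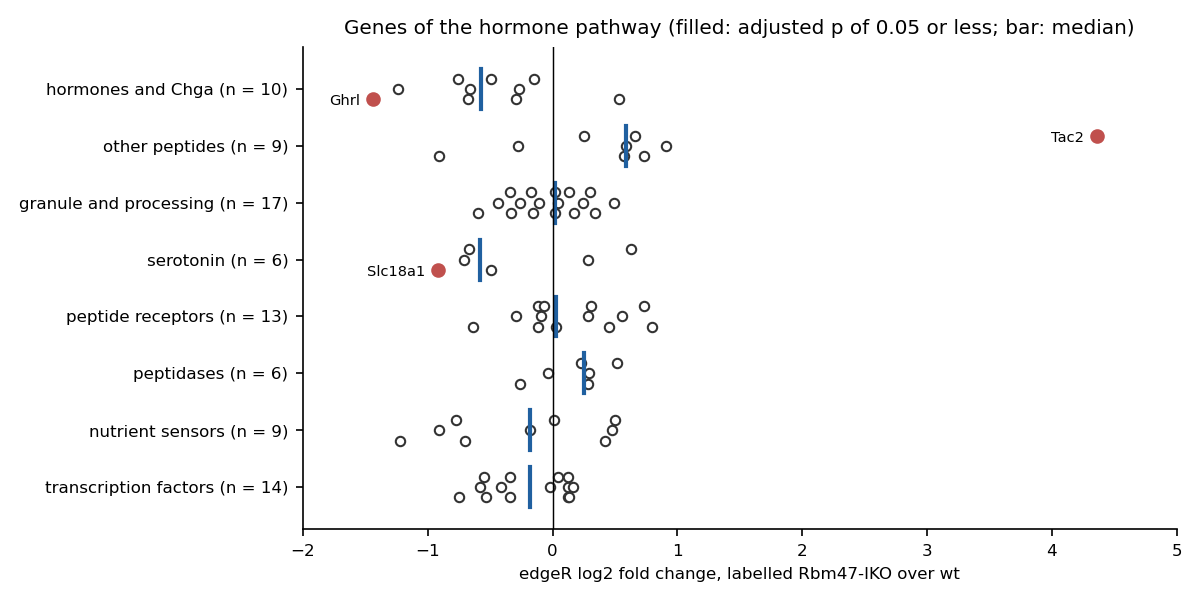
Fitted edgeR log2 fold change of each tested gene of the hormone set and of 7 pathway lists, labelled Rbm47-IKO over wt, with filled red points for genes past the adjusted threshold and a blue bar at each list's median. The hormones and the serotonin genes have medians of -0.57 and -0.58, the granule genes centre on 0.02, and Tac2 stands apart at 4.36.

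Of 18 other gut and neural peptides, 9 could be tested, with 1 called higher and 0 lower and a median log2 fold change of 0.59. Tac2, which encodes neurokinin B, a neuropeptide, had 87, 85 and 38 counts in the labelled pools and 5, 1 and 4 in wt, with a log2 fold change of 4.36 (SE 0.58, edgeR adjusted p = 0.0145). Leaving out labelled pool 1, labelled pool 2 or wt pool 3 took its edgeR adjusted p to between 0.0671 and 0.0978. Its 3 labelled pools had 2.51, 2.24 and 1.16 CPM, and the part of neuronal RNA in them was not tested. Adm, adrenomedullin, had 5.69, 5.41 and 4.29 CPM against 1.26, 3.90 and 3.02 (log2 fold change 0.91, SE 0.39, edgeR adjusted p = 0.297). Vip, a peptide of enteric neurons, had 0.520, 1.58 and 4.26 CPM against 0.0294, 3.98 and 0.192 and followed the neuron markers, highest in labelled pool 3 and wt pool 2.

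Of 23 peptide receptors, 13 could be tested and edgeR called 0, with 1 at an unadjusted p under 0.05, higher, and a median of 0.03, while DESeq2 called 1. That was Sort1, sortilin, one of the neurotensin receptors, with 224 to 282 CPM against 125 to 170 (log2 fold change 0.73, SE 0.16, edgeR adjusted p = 0.0566). Glp2r, the receptor of GLP-2, had 2.37 to 4.66 CPM against 2.97 to 10.6 (log2 fold change -0.64, SE 0.51, edgeR adjusted p = 0.616). Of 6 brush border peptidases that clear peptides, edgeR called 0, with 1 at an unadjusted p under 0.05, higher, and DESeq2 called that 1, Anpep. It had 10906 to 12459 CPM in the labelled pools against 7991 to 8637 in wt (log2 fold change 0.52, SE 0.14, edgeR adjusted p = 0.107). Of 9 tested of 12 nutrient sensors, edgeR and DESeq2 called 0, with a median of -0.18. At an unadjusted edgeR p under 0.05, 2 of the 9 were lower and 1 higher. Over all genes, 8.21% were lower and 8.57% higher at that level. Lpar5, a lipid receptor, had 38.5 to 45.1 CPM against 24.1 to 34.1 (log2 fold change 0.42, SE 0.15, edgeR adjusted p = 0.222), and Ffar3, a short-chain fatty acid receptor, had 1.90 to 3.87 against 1.32 to 3.81 (log2 fold change 0.01, SE 0.43, edgeR adjusted p = 0.984).

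The genes whose pattern over the 6 pools was most like the mean standardized log2 CPM of the 10 members, among 9761 other genes with a mean of at least 5 CPM, were Zfas1, Dpy30, Pts, Exosc10 and Olfm4, with Pearson's r of 0.983 to 0.985. This is a description over 6 pools that share the split by genotype label. Olfm4, a crypt base gene, had 16.8, 16.4 and 12.3 CPM in the labelled pools and 43.0, 79.7 and 20.7 in wt (log2 fold change -1.65, edgeR adjusted p = 0.0974), and the other 4 had log2 fold changes of -0.39 to -0.14, none past the threshold.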

How the data were processed

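The authors deposited 1 table per pool with whole-number read counts on 38561 Ensembl genes, and with CPM and RPKM that the authors computed from those counts; both were recomputed here and matched to within 4.91e-11. Per the submitters' processing notes, STAR 2.5.1a, Subread, featureCounts 1.4.6-p5 and GRCm38 were used. Symbols were found for 36639 genes. Counts were tested with edgeR 4.0.16 in R 4.3.3 (filterByExpr, TMM, quasi-likelihood test, Benjamini-Hochberg adjusted p of 0.05 or less, 16425 genes), and tables were handled in Python 3.11.15. The CPM and RPKM in the text come from the deposited counts with TMM library sizes.

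Alternatives were DESeq2 1.42.0, limma-voom (limma 3.58.1), RLE, upper-quartile and library-size scaling, other filters, a robust fit, a replicate block, a smooth muscle covariate, 2 pools per genotype and each pool left out. Members and gene lists were chosen with earlier results of these data known. Genes named were the members, Rbm47, list genes past the threshold, the 2 most abundant tested genes of each pathway list, and the 5 genes nearest in pattern. Marker lists were given as sums, and single marker genes were named after their values were seen, chiefly where DESeq2 called them or all labelled pools lay on 1 side of wt. A gene that this rule names is not reported here. Neurog3, Tph1 and Slc18a2 fall outside this rule and were named after their values were seen. No 2 pools held the same counts within sampling noise, so all 6 were kept. The fit was tested on simulated data. P-values measure the spread between pools, not between mice, and reads are not independent molecules.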

Additional observations from a re-analysis of the deposited data

How the results depend on the processing

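Over 17 alternative settings, the 10 members gave 170 fitted values, of which 154 kept their direction and their side of the threshold, 8 lost the call (all of Ghrl), 6 gained one (Cck, Gip and Nts) and 2 changed sign (Pyy, 0.01 with the smooth muscle covariate and 0.26 without wt pool 1, in a range of -0.38 to 0.26 over the pools left out). DESeq2 called 1243 genes (576 lower, 667 higher), 4 members and 6 pathway genes, against 443 (205 lower, 238 higher), 1 and 2 with edgeR. The smooth muscle covariate gave 711 genes (329 lower, 382 higher) and 3 members, and 2 pools per genotype gave 0 members. Library size only, the filter at 1 CPM in 3 pools and the robust fit each called 4 pathway genes. The cause of these shifts was not tested.

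With 1 pool left out, the count of genes ran from 0 to 431 (lower 0 to 211, higher 0 to 220), that of members from 0 to 1 and that of pathway genes from 0 to 3. It was 32 without labelled pool 1, 0 without labelled pool 2 (1729 genes at an unadjusted edgeR p under 0.05), 119 without labelled pool 3 and 11 without wt pool 3. Fewer pools were then tested. Rbm47 had a log2 fold change of 0.41 by DESeq2 (adjusted p = 0.00105) and 0.41 with library size only (adjusted p = 0.0473), both past the threshold.

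With a replicate block, edgeR called 100 genes (37 lower, 63 higher), 0 members and 0 pathway genes, with 2697 genes at an unadjusted p under 0.05. Deviations of same-numbered pools correlated at 0.41, 0 and -0.28, so that the numbers were not taken to pair the pools, and not every pool correlated best with its own number. The ratio of proximal to distal hormones was 1.88 in the labelled pools and 2.27 in wt with summed RPKM, and 0.730 in the labelled pools and 1.075 in wt with mean log2 CPM. Without scaling by length, 4 of 10 members kept their rank in wt. Scaled to Chga, which was added after the data were seen, 1 of 9 hormones stayed apart between groups, against 6 of 9 unscaled. Unscaled, 11.6% of all genes tested lay apart with the labelled pools lower and 11.7% with them higher. No such share was computed on the Chga scale, and Chga itself varied between pools. Ghrl, with 42 to 174 counts per pool, was counted less deeply than Gip, Nts or Chga. The part of depth in the calls was not tested.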
